A study of Rattus norvegicus with 8 samples.

Results

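Cytochrome P450 genes were read on 8 whole-transcript microarrays of rat kidney. A gene was taken as a member when a probe set carried 1 gene symbol made of Cyp and a digit, with the vitamin D hydroxylases Cyp24a1, Cyp27b1 and Cyp2r1 and the sterol demethylase Cyp51 left out by rule. Where a gene had several probe sets, the one with the highest mean over the 8 arrays was used. This gave 70 members among 18166 genes. A further 3 Cyp probe sets carried several symbols and were not used.

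Cytochrome P450 enzymes are heme proteins that insert an oxygen atom into drugs, fatty acids, sterols and steroids, with electrons passed on from P450 reductase in the endoplasmic reticulum or from ferredoxin in mitochondria. In kidney they are concentrated in the proximal tubule, where families 2 and 4 turn arachidonic acid into epoxides and hydroxylated acids that act on tubular transport and vascular tone. Other members clear foreign compounds, make bile acids and steroid hormones or break down retinoic acid, largely in liver, adrenal gland and gonads.

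The tissue came from male Wistar rats 10 weeks of age, and 4 arrays are labelled cortex and 4 medulla. All 8 arrays share 1 treatment label, ethylene glycol every day with vitamin D on alternate days for 1 week, so the labels allow no comparison with untreated kidney. This combination raises oxalate and calcium and is used to form calcium oxalate crystals in rat kidney. Whether the arrays are of separate animals is not in the labels, so a p-value here covers only the array-to-array spread, which could be technical. The values are log2 intensities, and arrays are numbered 1 to 4 within each region in accession order, which pairs no arrays. The study's design text selected genes that changed at least 2-fold in both regions without naming the arrays compared, so the range between arrays, the highest minus the lowest log2 value within a region, was used for that question here.

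Array medians lay between 34.1 and 34.7 intensity units. Markers of the proximal tubule were bright on arrays of both labels, with intensities over 8 genes that summed to between 7250 and 9128 in cortex and between 5790 and 8340 in medulla, of which 7 had the lower mean in medulla. All 4 inner medulla markers had the higher mean in medulla, and Slc14a2, which carries urea in the inner medulla, was the only 1 of them whose regions did not overlap. Arrays of 1 region also differed among themselves. A list of 6 tubular injury genes summed to between 1291 and 10115 in cortex and between 1407 and 11908 in medulla, highest on array 4 of each region. Clu, Spp1 and Havcr1 made up most of the sum on array 4. Gene by gene, 5 of the 6 were highest on array 4 of each region. The exception was Krt20, which lay between 4.31 and 4.44 on the 8 arrays and was lowest on medulla array 4. Cyp24a1, the vitamin D catabolic enzyme, was at least 9.97 on arrays 3 and 4 of each region and at most 6.21 on the others.

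The 250 bases before the start of transcription are given for the 3 genes that varied at least 2-fold in both regions, Cyp2c11, Cyp2d5 and Cyp2s1, and for Cyp2c23, a bright gene that did not, so that genes with and without such variation can be read side by side. They are from RefSeq, assembly GRCr8, at chr1:246174966-246175215 on the plus strand for Cyp2c11, chr7:115784488-115784737 on the minus strand for Cyp2d5, chr1:90453074-90453323 on the minus strand for Cyp2s1 and chr1:252863068-252863317 on the minus strand for Cyp2c23. Each is written 5′ to 3′ on the gene's own strand. Capitals mark matches to GCGTG, the core of the xenobiotic response element, AGGTCA, the hexamer of nuclear receptor sites, GTTAAT, a core of HNF1 sites, and CAAAG, a core of HNF4 sites, each searched on both strands.
Cyp2c11: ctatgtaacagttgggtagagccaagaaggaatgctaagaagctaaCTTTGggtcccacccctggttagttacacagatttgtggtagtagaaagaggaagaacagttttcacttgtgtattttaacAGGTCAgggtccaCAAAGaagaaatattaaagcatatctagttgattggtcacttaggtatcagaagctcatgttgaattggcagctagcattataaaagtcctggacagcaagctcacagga
Cyp2d5: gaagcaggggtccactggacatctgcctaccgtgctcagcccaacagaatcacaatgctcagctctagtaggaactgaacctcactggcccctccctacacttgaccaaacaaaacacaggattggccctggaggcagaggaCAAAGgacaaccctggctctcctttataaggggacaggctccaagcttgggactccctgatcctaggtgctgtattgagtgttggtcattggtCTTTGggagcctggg
Cyp2s1: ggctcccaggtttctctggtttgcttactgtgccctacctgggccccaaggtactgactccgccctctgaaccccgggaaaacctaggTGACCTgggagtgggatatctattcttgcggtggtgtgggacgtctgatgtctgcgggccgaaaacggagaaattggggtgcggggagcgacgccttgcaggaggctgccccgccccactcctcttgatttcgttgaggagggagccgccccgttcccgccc
Cyp2c23: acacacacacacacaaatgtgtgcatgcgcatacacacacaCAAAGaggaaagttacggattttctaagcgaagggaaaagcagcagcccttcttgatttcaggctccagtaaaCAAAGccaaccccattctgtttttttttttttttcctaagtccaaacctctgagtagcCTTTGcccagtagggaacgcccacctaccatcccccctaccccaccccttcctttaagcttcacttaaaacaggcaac
Cyp2c11 held 1 match to AGGTCA and 2 to CAAAG, Cyp2d5 held 2 to CAAAG, Cyp2s1 held 1 to AGGTCA and Cyp2c23 held 3 to CAAAG. No match overlapped another in these 4 stretches.

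Promoters of 300 bases, which reach 50 bases past the start, were given for 53 of the 70 members and for 27457 genes in all. CAAAG was in 77.4% of the members' promoters and in 53.5% of all. AGGTCA was in 30.2% of the members' promoters, which is 16 of 53, and in 15.7% of all. GCGTG stood at 30.2% against 31.1%, and GTTAAT at 7.55% against 7.37%. These are letters found in a window, with no test, and many members are neighbouring copies that share sequence. In the same assembly, 47 of the 69 members that could be placed lay next to another Cyp gene, such as Cyp2d4, Cyp2d5, Cyp2d3 and Cyp2d2 in 1 run, Cyp4a8 and Cyp4a1 in another, and Cyp4f1 beside Cyp4f6. Probes for such close copies can read more than 1 gene. Values within the 2a, 2b, 2c, 2d, 2j, 3a, 4a, 4f and 11b subfamilies are therefore uncertain as to the single gene.

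Most members gave a dim signal in this tissue. Of the 70, 37 had a mean no higher than the lower quartile of all genes, 4.70 log2 intensity, and 40 were at or below the 30th percentile of 4.83. The 30 brighter members comprised 13 of the 34 in family 2, 8 of the 12 in family 4, 5 of the 6 in cholesterol and bile acid metabolism, 2 of the 3 retinoic acid hydroxylases, 1 of the 7 steroid hormone enzymes and Cyp20a1. Both members of family 1 and all 5 of family 3 were dim. A dim value here is close to the lowest signals of the array and its changes are compressed. Among the 40 dim members the widest range was 0.32 in cortex and 0.36 in medulla, so 0 of them reached 2-fold.

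Within a region, 3 members ranged at least 2-fold in both cortex and medulla, a further 2 did so in cortex alone and 3 in medulla alone. In cortex the 5 members, 7.14% of 70 against 3.60% of all genes, were Cyp2c11, Cyp4a1, Cyp2d5, Cyp39a1 and Cyp2s1. In medulla the 6 members, 8.57% against 3.80%, were Cyp2c11, Cyp2d5, Cyp2s1, Cyp2d2, Cyp4f1 and Cyp2e1. In both regions the count was 3, or 4.29% against 2.21%. All of these members were among the brighter 30, so genes above the 30th percentile of signal are the closer background. On that footing the shares were 16.7% against 5.14% in cortex, 20% against 5.42% in medulla and 10% against 3.16% in both. Nearest the threshold were Cyp2s1 inside it at 1.01 and Cyp4f1 and Cyp27a1 outside it at 0.81 in cortex, and Cyp2e1 inside it at 1.07 and Cyp4a1 outside it at 0.92 in medulla. The median range of the members was 0.17 in cortex and 0.16 in medulla, against 0.21 and 0.25 over all genes. The brighter 30 members had medians of 0.40 and 0.34, against 0.28 and 0.35 for the 12716 genes above the same signal. These counts are descriptions of 4 arrays per region, with no test. Leaving out cortex array 1 or cortex array 4 brought the cortex count to 3, and leaving out medulla array 2 or medulla array 4 brought the medulla count to 3. The count in both regions lay between 2 and 3 when any 1 array was left out, and Cyp2c11 was the only member that passed in both regions with each array left out in turn.

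**Figure D1:**
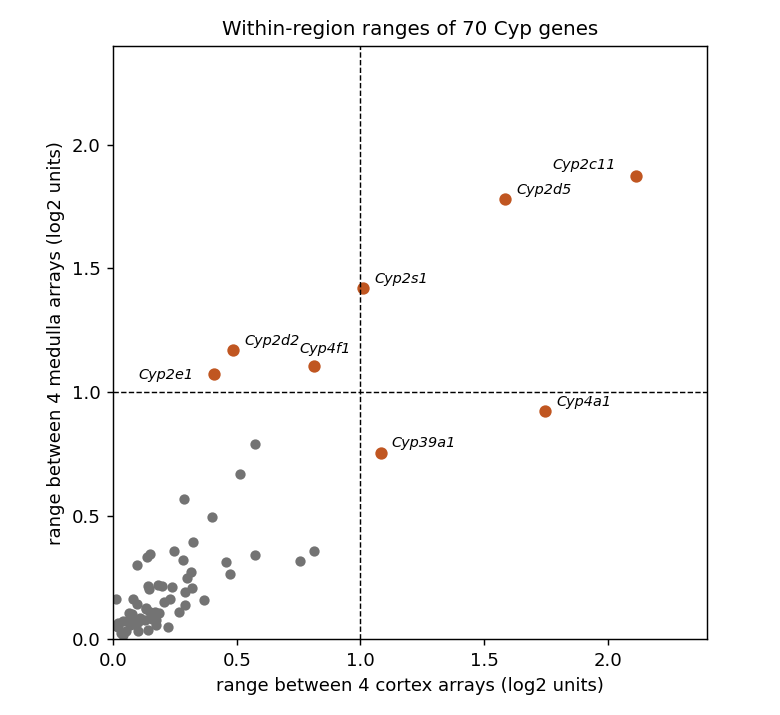
Range between the 4 cortex arrays (x axis, log2 units) against the range between the 4 medulla arrays (y axis, log2 units) for the 70 Cyp genes, 1 point each, with dashed lines at 1 log2 unit, or 2-fold. The 8 coloured and named genes pass a line, Cyp2c11 lies farthest out at 2.11 and 1.87, and most of the others lie near the origin.

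In family 2, which holds most drug-metabolising P450s and the arachidonic acid epoxygenases, the widest range belonged to Cyp2c11. This steroid hydroxylase is a male-specific enzyme of rat liver. Cyp2c11 measured 7.31, 7.31, 6.27 and 5.20 log2 intensity on cortex arrays 1 to 4, and 6.93, 6.81, 5.36 and 5.06 on medulla arrays 1 to 4. In both regions arrays 1 and 2 were high and array 4 was lowest, and the regions overlapped. Its range was 2.11 in cortex, or 4.33-fold, and 1.87 in medulla, or 3.66-fold, which placed it at the 99.6th and 99.5th percentile of all genes. Without cortex array 4 the cortex range was 1.04, and without medulla array 4 the medulla range was 1.58. In whole tissue, fewer cells of a type and less RNA per cell cannot be told apart.

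Markers of other cells and segments moved with some of these arrays. A list of 5 proximal straight tubule markers summed to between 1585 and 4068 in cortex and between 1792 and 3725 in medulla, lowest on array 4 in both regions. Slc7a13, an amino acid exchanger of that segment, measured 11.69, 11.60, 11.37 and 9.65 in cortex, against 11.46, 11.40, 11.52 and 10.23 in medulla. The cortex sums follow this 1 gene, the brightest of the 5. The other 4 markers summed to 759, 837, 876 and 783 on cortex arrays 1 to 4, lowest on array 1. In medulla they summed to 656, 714, 793 and 594 on arrays 1 to 4, lowest on array 4. Gene by gene, 4 of the 5 markers were lowest on array 4 of each region. The exception in cortex was Slc5a8, which was highest on cortex array 4 at 8.35. The sum over the 8 proximal tubule markers was likewise lowest on cortex array 1, at 7250 against 8155 on cortex array 4, and lowest on medulla array 4. Single markers did not all move with the sum. In cortex 6 of the 8 were lowest on array 1 and 2 on array 4, and on medulla array 4 there were 5 lowest and 3 highest. The sum over the 4 thick ascending limb markers was lowest on array 4 of each region. It was 2412 in cortex and 3186 in medulla, against at least 5351 and 5737 on the other arrays. All 4 were lowest on cortex array 4 and 3 of the 4 on medulla array 4, while Cldn16 in medulla was lowest on array 1. None of these markers was at 0, and their part in the Cyp values was not tested. Hepatocyte markers, of which 5 of 6 were measured, summed to only 158 to 218 in cortex and 154 to 175 in medulla, and albumin, Alb, lay between 4.51 and 4.59 on the 8 arrays, under the lower quartile of gene means. F2, the prothrombin gene of the same list, was brighter and measured 5.75 to 6.83 in cortex and 5.73 to 6.21 in medulla.

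The other brighter member of the 2c subfamily was Cyp2c23, the principal arachidonic acid epoxygenase of rat kidney. Cyp2c23 measured 11.12, 11.18, 11.45 and 11.27 in cortex, against 11.03, 11.13, 11.41 and 11.02 in medulla. Array 3 was highest in both regions, and the ranges were 0.32 and 0.39. The remaining 5 members, Cyp2c6v1, Cyp2c12, Cyp2c13, Cyp2c22 and Cyp2c55, were all dim.

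The 2d subfamily, whose human counterpart clears many basic drugs, had 4 members measured alone. Cyp2d5 measured 6.63, 5.35, 5.30 and 5.05 in cortex, against 5.02, 6.38, 4.60 and 5.35 in medulla. A single array was high in each region, array 1 in cortex and array 2 in medulla. Its ranges of 1.58 and 1.78 fell to 0.30 without cortex array 1 and to 0.74 without medulla array 2, each under 2-fold.

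Cyp2d2, the rat debrisoquine hydroxylase, measured 8.31, 7.83, 8.10 and 7.84 in cortex, against 7.70, 8.34, 7.17 and 7.29 in medulla. As for Cyp2d5, the highest arrays were array 1 in cortex and array 2 in medulla. The ranges were 0.49 and 1.17, and without medulla array 2 the medulla range was 0.53. Cyp2d4 measured 6.12, 6.16, 6.41 and 5.84 in cortex, against 6.07, 6.19, 5.66 and 5.40 in medulla, with array 4 lowest in both and no 2-fold range. Cyp2d4 was named after its values were seen, and Cyp2d3 was dim.

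Cyp2s1, a P450 of epithelia outside the liver that responds to the aryl hydrocarbon receptor, ran the other way from Cyp2c11. It measured 6.96, 6.86, 7.15 and 7.88 in cortex, against 6.96, 6.82, 6.85 and 8.24 in medulla. Array 4 was highest in each region and the other 3 arrays of the region lay close together. Its ranges were 1.01 and 1.42, and they fell to 0.29 without cortex array 4 and to 0.14 without medulla array 4. Its cortex range was also under 2-fold, at 0.92, without cortex array 2. The summed tubular injury markers were highest on array 4 of each region too, at 10115 and 11908, and their part in the Cyp2s1 values was not tested.

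Cyp2e1, which oxidises ethanol and other small molecules, measured 8.48, 8.42, 8.82 and 8.50 in cortex, against 8.28, 8.29, 8.61 and 7.54 in medulla. Only medulla array 4 stood low, and the medulla range of 1.07 was 0.33 without it and 0.75 without medulla array 3. Cyp2j4, of an epoxygenase subfamily, measured 7.45, 7.38, 7.67 and 6.92 in cortex, against 7.25, 6.94, 7.23 and 6.94 in medulla, with ranges of 0.76 and 0.32. Array 4 was lowest in cortex, and medulla arrays 2 and 4 were equally low. The 7 members of the drug-inducible 2b subfamily reached at most 0.29 in cortex and 0.57 in medulla, and the 3 of the 2a subfamily at most 0.18 and 0.14.

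**Figure D2:**
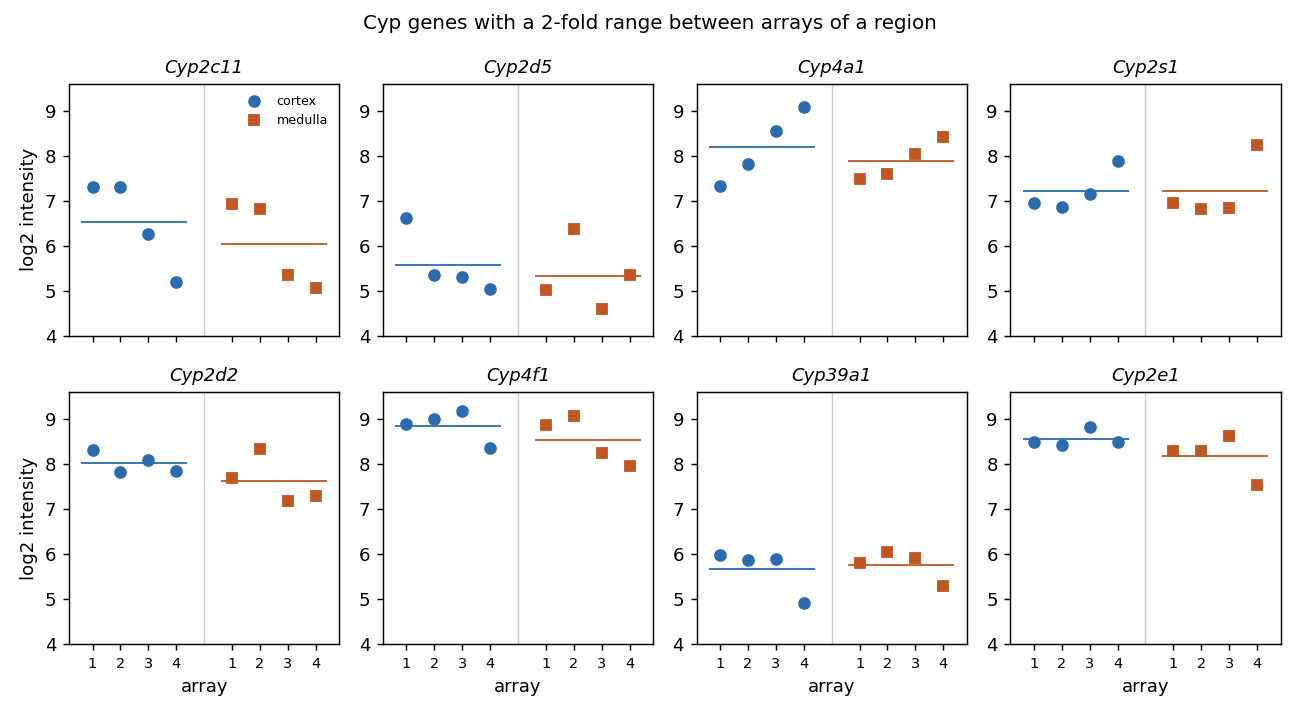
Log2 intensity (y axis) of the 8 Cyp genes with a range of at least 2-fold in a region, on cortex arrays 1 to 4 (circles) and medulla arrays 1 to 4 (squares), with a line at each region's mean of 4 arrays. Cyp2c11 was lowest on array 4 of each region, Cyp4a1 and Cyp2s1 were highest there, and Cyp2d5 was high on 1 array of each region.

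In family 4, the fatty acid hydroxylases that act at or near the end of the chain, Cyp4a1 varied most. It is a classic target of the lipid-sensing receptor Ppara. Cyp4a1 measured 7.33, 7.83, 8.55 and 9.08 in cortex, against 7.49, 7.61, 8.03 and 8.41 in medulla. Array 4 was highest and array 1 lowest in both regions, with arrays 2 and 3 between them. The range was 1.75 in cortex, or 3.36-fold, and 0.92 in medulla, or 1.90-fold, which is under the threshold. Without cortex array 4 the cortex range was 1.22, and without medulla array 4 the medulla range was 0.54.

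Cyp4a8, the second measured member of its subfamily, differed little between arrays. It measured 10.16, 10.13, 10.41 and 10.40 in cortex, against 9.97, 10.03, 10.16 and 10.29 in medulla, with ranges of 0.28 and 0.32. Cyp4a2 and Cyp4a3 had no probe set of 1 symbol in the table and were not analysed here. Ppara itself measured 6.89, 6.63, 6.73 and 6.24 in cortex, against 6.64, 6.65, 6.55 and 5.98 in medulla, lowest on array 4 of each region, where Cyp4a1 was highest.

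Cyp4f1, a hydroxylase of leukotrienes and arachidonic acid, measured 8.89, 8.99, 9.17 and 8.36 in cortex, against 8.87, 9.06, 8.25 and 7.95 in medulla. Array 4 was lowest in both regions and medulla array 3 was low as well. The ranges were 0.81 and 1.11, and the medulla range was 0.81 without medulla array 4 and 0.91 without medulla array 2. Cyp4f6 measured 6.51, 6.57, 6.82 and 6.42 in cortex, against 6.78, 6.70, 6.46 and 6.28 in medulla, again with array 4 lowest, and no other 4f member reached 2-fold. Cyp4b1, named after its values were seen, was highest on array 4 in both regions at 6.10 and 6.57, though cortex array 1 was nearly as high at 6.07.

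Among the 6 enzymes of cholesterol and bile acid metabolism, only Cyp39a1, an oxysterol hydroxylase, ranged at least 2-fold. Cyp39a1 measured 5.99, 5.88, 5.89 and 4.91 in cortex, against 5.80, 6.06, 5.91 and 5.30 in medulla. The 3 cortex arrays other than array 4 were nearly equal, and array 4 was lowest in medulla too, with ranges of 1.08 and 0.75. Its cortex range was 0.11 without cortex array 4 and 0.98 without cortex array 1, both under 2-fold. Cyp27a1, the mitochondrial sterol hydroxylase, measured 5.92, 5.68, 5.57 and 5.11 in cortex, against 5.83, 5.67, 5.47 and 5.64 in medulla. Its cortex range of 0.81 was 0.35 without cortex array 4. Cyp7b1, which hydroxylates oxysterols, measured 5.67, 5.80, 5.23 and 5.77 in cortex, against 5.40, 5.48, 5.75 and 5.66 in medulla, so that array 3 was lowest in cortex and highest in medulla. Cyp7a1, the rate-limiting enzyme of bile acid synthesis in liver, was dim.

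The remaining groups showed little variation. Cyp1a1, the standard target of the aryl hydrocarbon receptor, measured 4.85, 4.69, 4.63 and 4.55 in cortex, against 4.76, 4.68, 4.55 and 4.51 in medulla. Array 1 was highest and array 4 lowest in both regions, all within 0.30 log2 units in a dim probe set. Cyp1b1, also of family 1, measured 4.55, 4.63, 4.64 and 4.65 in cortex, against 4.58, 4.51, 4.64 and 4.81 in medulla, so neither family 1 gene had a 2-fold range. The 5 family 3 members, drug and steroid hydroxylases of liver, ranged at most 0.14 in cortex and 0.21 in medulla.

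The 7 steroid hormone enzymes ranged at most 0.29 and 0.21. Adrenal cortex markers summed to between 199 and 244 on the 8 arrays over 6 genes, with Star between 5.14 and 5.29 and Akr1b7 between 4.22 and 4.28. Scarb1, a lipoprotein receptor in that list, was highest on array 4 of each region, at 6.55 in cortex and 6.53 in medulla against at most 6.01 and 5.85 on the other arrays. Of the 3 retinoic acid hydroxylases, Cyp26b1 measured 5.20, 5.14, 5.19 and 5.27 in cortex, against 5.36, 5.19, 5.06 and 5.02 in medulla, and none reached 2-fold. Cyp20a1, an orphan P450, was among the flattest of the brighter genes, at 6.81, 6.95, 6.86 and 6.85 in cortex and 6.86, 6.94, 6.97 and 6.96 in medulla.

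Across the members, array 4 held the lowest value of its region more often than any other medulla array, though not more often than every cortex array. In medulla 32 of 70 members, or 45.7%, were lowest on array 4, against 28.1% of all genes. In cortex 24 members were lowest on array 4, or 34.3% against 31.6% of all genes, and 25 on array 1, or 35.7% against 27.2%. Of the brighter 30 members, 15 were lowest on cortex array 4 and 16 on medulla array 4, against 34.3% and 27.1% of all genes above the same signal. Of those genes, 34.6% were highest on cortex array 4 and 30.8% on medulla array 4, against 23.3% and 20.0% of the brighter members. By contrast, 20 of the 40 dim members were lowest on cortex array 1. A share over dim genes alone was not computed. It must lie above the 27.2% of all genes, because genes above the 30th percentile lay at 24.3%. The mean deviation from the region's mean on array 4 was -0.12 in cortex and -0.09 in medulla over the brighter 30. Array 4 was lowest in both regions for 13 of the 70 members and highest in both for 5, which were Cyp4a1, Cyp2s1, Cyp4b1, Cyp4f18 and Cyp1b1. Cyp1b1 was dim, and Cyp4f18, with a mean of 4.86, lay just above the 30th percentile of 4.83. The same counts over all genes were not computed, so the 13 and the 5 are not read as results about the members. Like array numbers also pair no arrays between regions. The members come from the same tissue and arrays, so these counts are descriptions.

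**Figure D3:**
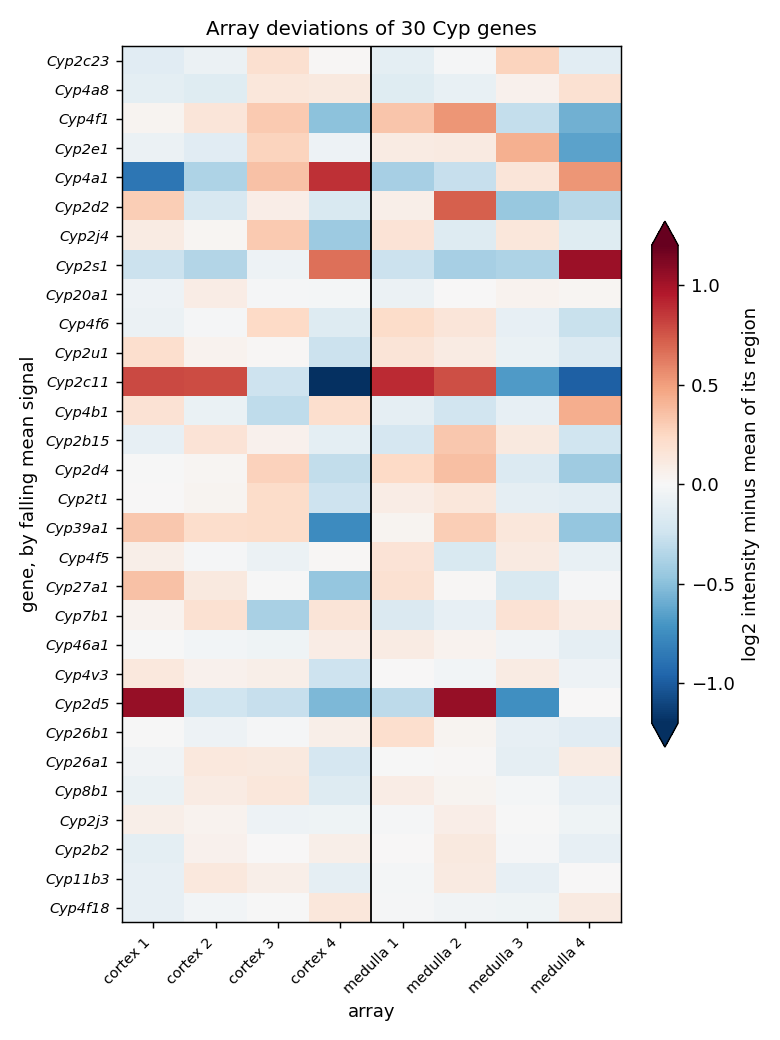
Each array's log2 intensity minus the mean of its region (colour; the scale ends at 1.2 log2 units, which Cyp2c11 on cortex array 4 passes) for the 30 brighter Cyp genes (rows, by falling mean signal) on 4 cortex and 4 medulla arrays (columns). On array 4 of each region 15 and 16 of the 30 were lowest, against 34.3% and 27.1% of all genes above the same signal, and the deepest red on array 4 marks Cyp4a1 and Cyp2s1.

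Medulla against cortex was the only comparison of groups that the labels allow, and no member passed it. Limma with Benjamini-Hochberg adjustment over all 18166 genes, at an adjusted p under 0.05 and a 2-fold difference, called 0 of the 70 members, and the background was 0% of all genes. At an unadjusted p under 0.05, limma had 0 of the 70 members and 971 of the 18166 genes. At the rate of all genes only a few of 70 would pass. Limma with array weights or with a trended robust prior also called 0. These fits were unpaired, so any spread that cortex and medulla arrays share stays in their error and can hide a difference. Of the members, 47 had the lower mean in medulla, or 67.1% against 54.2% of all genes, and the median difference was -0.03 log2 units against -0.01 over all genes. The lower mean was in medulla for 21 of 34 members in family 2, 9 of 12 in family 4 and 4 of 5 in family 3. It was so for 6 of 7 steroid hormone enzymes, 3 of 3 retinoic acid hydroxylases, 3 of 6 in cholesterol and bile acid metabolism and 1 of 2 in family 1. Cyp20a1 had the higher mean in medulla. Of the brighter members 20 of 30 were lower, or 66.7% against 49.6% of all genes above the same signal. Of the dim members 27 of 40 were lower, or 67.5%, with differences between -0.09 and 0.16. A share over dim genes alone was not computed. It must lie above the 54.2% of all genes, because brighter genes lay at 49.6%. With 40 of the 70 members dim, 54.2% is therefore too low a background for the 67.1% of the members. In the 2b subfamily 5 of 7 had the higher mean.

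The largest difference was in Cyp2c11, at 6.04 ± 0.97 (SD, n = 4) in medulla and 6.52 ± 1.01 (SD, n = 4) in cortex. The difference was -0.48 with a standard error of 0.62, limma's adjusted p was 0.939 and the exact two-sided permutation p was 0.543. It was -0.92 without cortex array 4 and -0.15 without medulla array 4. Cyp2d2 differed by -0.39 ± 0.26 (SE), Cyp2e1 by -0.37 ± 0.22, Cyp4f1 by -0.32 ± 0.28 and Cyp4a1 by -0.31 ± 0.39, with limma's adjusted p between 0.876 and 0.938. Without medulla array 4 the Cyp2e1 difference was -0.16 and the Cyp4f1 difference was -0.13, while without cortex array 4 the Cyp4a1 difference was -0.02. Without medulla array 2 the Cyp2d2 difference was -0.63 and the Cyp4f1 difference -0.50, and without medulla array 3 the Cyp2d2 difference was -0.24. Without cortex array 1 the Cyp4a1 difference was -0.60.

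The regions of the brightest genes were close. Cyp2c23 differed by -0.11 ± 0.11 (SE, n = 4 and 4), with an exact permutation p of 0.371, and Cyp4a8 by -0.16 ± 0.10, with an exact permutation p of 0.200. Cyp2s1 had equal means, with a difference of 0.00 ± 0.37 that was -0.34 without medulla array 4 and 0.23 without cortex array 4. Cyp2d5 differed by -0.24 ± 0.46, and by 0.11 without cortex array 1, which turned its sign.

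In 2 members, 2.86% against 2.83% of all genes, every medulla value lay on 1 side of every cortex value. They were Cyp2ab1, at 4.39 in cortex and 4.33 in medulla, and Cyp3a73, at 4.20 and 4.16. Both were lower in medulla, a pattern that 1.74% of all genes showed, and both were dim and different by under 0.10 log2 units, with an exact permutation p of 0.0286, which is the smallest that 4 against 4 arrays can give, and limma's adjusted p of 0.876 and 0.877. They are named after their values were seen. With 1 array left out fewer values can overlap, so the count can rise for any set of genes. It was 5 without cortex array 1, 7 without cortex array 4, 7 without medulla array 2 and 6 without medulla array 3. The share of all genes was not computed with arrays left out, so the rise is not read as a result about the members.

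**Figure D4:**
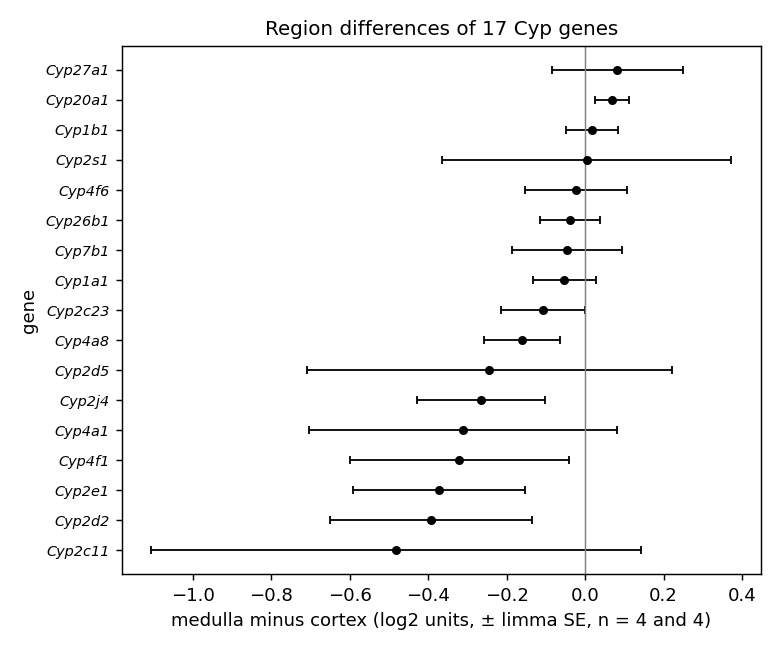
Difference between medulla and cortex (x axis, log2 units, medulla minus cortex) for the 17 named Cyp genes (y axis), with bars of 1 limma standard error and 4 arrays per region. The differences run from -0.48 for Cyp2c11 to 0.08 for Cyp27a1, and none was called.

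P450 partner and regulator genes, 30 measured of 35 listed, were read in the same fit. They comprise electron donors, heme enzymes, epoxide hydrolases and transcription factors. Limma called 0 of the 30, against 0% of all genes, and 2, or 6.67% against 2.83% of all genes, did not overlap between regions. The lower mean was in medulla for 24, or 80% against 54.2% of all genes. Of genes above the 30th percentile of signal, where 27 of the 30 lay, 49.6% had the lower mean in medulla. Ephx2, the soluble epoxide hydrolase that breaks down the epoxides made by Cyp2c23, measured 6.69, 6.72, 6.99 and 6.65 in cortex, against 6.06, 6.64, 6.49 and 6.03 in medulla, a difference of -0.46 ± 0.16 (SE). Nr1h3, the oxysterol receptor LXR alpha, measured 7.18, 7.26, 7.36 and 7.23 in cortex, against 6.90, 7.04, 6.98 and 6.95 in medulla, a difference of -0.29 ± 0.05. Every medulla value of both genes was below every cortex value, with an exact permutation p of 0.0286 and limma's adjusted p of 0.875 for each.

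Por, the reductase that supplies microsomal P450s with electrons, measured 7.86, 7.92, 8.03 and 7.94 in cortex, against 7.95, 7.76, 7.57 and 7.93 in medulla. It was nearly level, with a difference of -0.13 ± 0.09 (SE). Hnf4a, a transcription factor of proximal tubule and liver, measured 9.04, 9.29, 9.47 and 8.85 in cortex, against 9.16, 9.14, 8.71 and 8.51 in medulla, lowest on array 4 in both. Ahr, the aryl hydrocarbon receptor, measured 6.78, 6.59, 6.62 and 6.33 in cortex, against 6.67, 6.58, 6.75 and 6.34 in medulla, also lowest on array 4 in both regions, where Cyp2s1 was highest.

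A 2-fold range in both regions was found in 2 of the 30 partner and regulator genes. This is 6.67%, against 2.21% of all genes and 3.16% of genes above the 30th percentile of signal. Esr1, the estrogen receptor alpha, measured 7.52, 7.76, 7.64 and 6.14 in cortex, against 7.15, 7.48, 6.98 and 5.95 in medulla, with ranges of 1.61 and 1.53. Hmox1, the inducible heme oxygenase that breaks heme down, measured 4.96, 5.12, 5.12 and 6.42 in cortex, against 5.02, 5.14, 4.99 and 6.22 in medulla, with ranges of 1.46 and 1.23. Array 4 alone stood apart in both genes, low for Esr1 and high for Hmox1. Without array 4 of the region, the ranges fell to 0.24 in cortex and 0.50 in medulla for Esr1 and to 0.16 in cortex and 0.15 in medulla for Hmox1, all under 2-fold. The coactivator Ppargc1a was lowest on the same arrays, at 8.10 in cortex and 8.35 in medulla, as was the mitochondrial electron donor Cyb5b, at 7.79 and 8.16, and both stayed under 2-fold.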

How the data were processed

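Total RNA of rat kidney tissue was labelled with biotin as sense-strand DNA, per the labels' protocols. The deposited table gives each probe set's intensity on each array. Per the submitters' processing notes it came from RMA in Affymetrix Expression Console, of which the sources used here give no version. Values ran from 17.3 to 6229 with nearly equal medians, so they were read as linear and normalized between arrays, and logged with no pseudocount. The planned test allowed for this. RMA normalization sets array distributions alike, so a shift shared by most genes would not be seen. Detection calls were not used here.

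Of 29870 probe sets, 18511 had 1 symbol in the platform annotation, 575 had several and 10784 are unnamed here. By Entrez identifier, 18394 matched RefSeq genes of GRCr8 and 0 symbols changed. This gave 18166 genes. Medulla was set against cortex by lmFit and eBayes of limma 3.58.1 under R 4.3.3, with Benjamini-Hochberg adjustment over all genes. Single genes also had the exact two-sided permutation test over 70 regroupings. The fit was also run on simulated data with independent noise in each gene. Such data hold no spread shared by many genes of an array, so that run cannot show how the fit handles it.

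The named genes were members with a 2-fold range in both regions, the 10 with the highest mean, the 5 with the largest regional difference, and fixed genes of known kidney roles, 17 in all. The named partners were the 5 with the largest smaller range plus Por, Ephx2, Hnf4a, Ppara and Ahr. Cyp39a1, Cyp2d4, Cyp4b1, Cyp4f18, Cyp2ab1, Cyp3a73 and Nr1h3 were named after their values were seen. So were the markers F2, Scarb1, Slc5a8, Cldn16, Clu, Spp1, Havcr1 and Krt20. The members and all lists were chosen with earlier results of these data known. Promoters are from RefSeq. Protein sequences were not used here. Figures were drawn with matplotlib 3.10.9.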

Additional observations from a re-analysis of the deposited data

Results flagged for a closer look

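Of the genes named here, 41 were looked at within each region for 1 array far from the other 3. An array was flagged where the ratio of its gap to the whole range passed Dixon's critical value. Cyp24a1 was not among the 41. This held in 11 of 82 groups. Chance flags about 5% of groups, but many of these genes were named for their spread, so the share is a description.

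Among the members, Cyp2s1 on medulla array 4 was 8.24, with the others between 6.82 and 6.96. Cyp39a1 on cortex array 4 was 4.91, with the others between 5.88 and 5.99. Cyp1b1 on cortex array 1 was 4.55, with the others between 4.63 and 4.65, in a dim probe set.

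Among the partners and regulators, Hmox1 was 6.42 on cortex array 4 and 6.22 on medulla array 4, with no other array above 5.14. Esr1 on cortex array 4 was 6.14, with the others at least 7.52, and Ppara on medulla array 4 was 5.98, with the others at least 6.55. Among the markers, Slc7a13 was 9.65 on cortex array 4 and 10.23 on medulla array 4, with the others at least 11.37 and 11.40. Scarb1 on medulla array 4 was 6.53, with the others at most 5.85. Alb on medulla array 3 was 4.59, with the others at most 4.52, in a dim probe set.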

How the results depend on the processing

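The precision is limited by 4 arrays per region, by dim signal in 40 members and by probes that may read close copies. Limma called 0 members and 0 genes under every alternative with a test; a 2-fold difference with no test passed 16 genes, against 0. The count of 2 members without overlap was 1 after quantile normalization and 0 without genes up to the 30th percentile of signal. It was 3 to 7 with 1 array left out, and 10 without array 4 of both regions, a setting added after the data were seen. The share of all genes was not computed with arrays left out, and fewer arrays make overlap rarer by construction. The median difference of -0.0279 was -0.0136 after quantile normalization, -0.0420 without the dim genes, and between -0.0364 and -0.0147 with 1 array left out. The cortex count of 5 members with a 2-fold range was 3 to 5 with 1 array left out, 3 without array 4 of both regions, 8 at 1.5-fold and 2 at 3-fold. The medulla count of 6 was 3 to 6, 3, 10 and 2 under the same settings. The count of 3 in both regions was 6 at 1.5-fold and 1 at 3-fold. Without array 4 of both regions, Cyp2c11, Cyp2d5 and Cyp4a1 passed in cortex and Cyp2c11, Cyp2d5 and Cyp2d2 in medulla. Fewer arrays make a range narrower by construction; the cause of the other shifts was not tested. Centring on the median, averaging the probe sets of a gene, limma's test against a 1.5-fold change and the adjusted p alone changed no count or median past these limits. No paired analysis was possible because the labels give no replicate numbers shared between regions. The 0 called is therefore a result of the unpaired fit only.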
